A study of Mus musculus with 8 samples.

Results

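The broad peaks described here are the intervals of open chromatin that were 2000 bp wide or more (end minus start) in 5 ATAC-seq peak lists from mouse liver cells. They were selected on width alone, so width is given as a description. They numbered 1188 of the 295260 peaks in the 5 lists: 224 of 39644 for Tumor Sox9, 553 of 71375 for Prog-like CK19, 144 of 67855 for Prog-like Sox9, 188 of 56932 for EpCAM-high CK19 and 79 of 59454 for EpCAM-high Sox9. Merged where they overlapped between lists, they made 774 regions. The cells came from a liver cancer model in which all genes of the Rb family were deleted by Cre, an event reported by YFP. They were taken from liver or from visible lesions, sorted for YFP and split by the surface proteins Thy1 and EpCAM. The 8 samples fall into 5 groups. Those labelled CK19 comprise 2 EpCAM-high and 2 Thy1-positive samples, those labelled Sox9 comprise 1 EpCAM-high and 1 Thy1-positive sample, and 2 samples are EpCAM-negative with no further label. The deletion and the YFP sort are shared by all 5 groups, and the labels name no Cre driver, age or strain and no group without the deletion. The labels tie the Tumor and Prog-like lists to no sample group, and how deeply they were sequenced is unknown. Each condition has a single list and no replicate, so no test was possible. Shares carry exact Clopper-Pearson 95% intervals, which cover counting error only.

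ATAC-seq reads out where DNA is free enough of nucleosomes for a transposase to insert its adapters, and a peak caller joins neighbouring enriched positions into 1 interval. Most enhancers and promoters open over a few nucleosomes. Wider open intervals form typically at CpG islands, the stretches of unmethylated, CG-rich DNA that hold the start sites of most widely used genes and of many developmental regulators. They can also form where several start sites or enhancers lie close together, or where reads from many copies of a repeat pile up on a collapsed stretch of the assembly.

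The promoters of genes under a broad peak are shown first, because their sequence played no part in choosing the peaks. The first 5 genes, in order of summed width, that were broad in all 5 lists and whose entry in the RefSeq promoter table (GRCm38.p6, the same build as mm10) lay under the peak were LOC108167694, Tent5a, Rap2b, Klf13 and Man2a1. Each sequence runs from 250 bases before to 50 bases after an annotated start, 5′ to 3′ on the strand of the gene, with every CG in capitals.
LOC108167694 (chr9:124423351-124423650, - strand): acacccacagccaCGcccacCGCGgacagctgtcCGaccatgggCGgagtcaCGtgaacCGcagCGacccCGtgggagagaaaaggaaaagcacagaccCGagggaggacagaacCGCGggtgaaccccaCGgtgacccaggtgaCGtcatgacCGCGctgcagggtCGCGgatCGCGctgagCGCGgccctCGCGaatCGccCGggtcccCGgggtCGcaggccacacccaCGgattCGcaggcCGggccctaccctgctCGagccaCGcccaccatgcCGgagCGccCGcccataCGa
Tent5a (chr9:85327075-85327374, - strand): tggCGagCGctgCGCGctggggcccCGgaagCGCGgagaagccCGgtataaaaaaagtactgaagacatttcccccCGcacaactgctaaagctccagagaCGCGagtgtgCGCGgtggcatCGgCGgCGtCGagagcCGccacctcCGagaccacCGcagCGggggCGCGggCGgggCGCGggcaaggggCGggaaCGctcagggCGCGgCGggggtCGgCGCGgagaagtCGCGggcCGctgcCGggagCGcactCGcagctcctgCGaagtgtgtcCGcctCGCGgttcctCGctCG
Rap2b (chr3:61364257-61364556, + strand): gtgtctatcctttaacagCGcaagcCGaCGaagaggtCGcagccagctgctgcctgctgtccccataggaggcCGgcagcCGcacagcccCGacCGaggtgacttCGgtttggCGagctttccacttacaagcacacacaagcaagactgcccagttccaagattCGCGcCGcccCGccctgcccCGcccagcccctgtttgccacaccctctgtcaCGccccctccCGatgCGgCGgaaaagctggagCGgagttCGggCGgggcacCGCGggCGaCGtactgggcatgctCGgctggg
Klf13 (chr7:63938866-63939165, - strand): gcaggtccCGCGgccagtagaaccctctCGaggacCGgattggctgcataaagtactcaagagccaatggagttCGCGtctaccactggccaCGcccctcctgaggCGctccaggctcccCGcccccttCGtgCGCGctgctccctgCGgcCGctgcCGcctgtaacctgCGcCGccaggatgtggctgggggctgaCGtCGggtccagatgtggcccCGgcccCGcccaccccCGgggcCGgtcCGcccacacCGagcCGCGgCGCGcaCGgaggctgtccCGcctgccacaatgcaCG
Man2a1 (chr17:64601399-64601698, + strand): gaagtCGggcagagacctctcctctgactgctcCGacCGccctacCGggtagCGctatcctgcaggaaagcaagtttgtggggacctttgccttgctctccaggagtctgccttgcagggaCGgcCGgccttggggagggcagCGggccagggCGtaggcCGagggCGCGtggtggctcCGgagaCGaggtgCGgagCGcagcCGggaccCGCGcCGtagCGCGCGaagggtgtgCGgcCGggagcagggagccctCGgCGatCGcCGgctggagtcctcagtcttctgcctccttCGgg

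These 5 promoters held 37, 46, 27, 32 and 30 CG dinucleotides in their 300 bases, in the order shown, where the median of all 21262 promoters of protein-coding genes in the table was 13. Each also held the GC box GGGCGG on 1 strand or the other, which Sp-family factors bind: 2 copies in LOC108167694, 2 in Tent5a, 4 in Rap2b, 3 in Klf13 and 1 in Man2a1.

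The next promoters belong to genes whose peak was broad in some lists alone. Erbb4 was broad in both EpCAM-high lists and had no peak at its ends in the other 3. Jun and Foxa1 were chosen after their values were seen, Jun as the widest gene-end peak of Prog-like CK19 and Foxa1 as a liver factor broad outside the Prog-like lists.
Erbb4 (chr1:69108010-69108309, - strand): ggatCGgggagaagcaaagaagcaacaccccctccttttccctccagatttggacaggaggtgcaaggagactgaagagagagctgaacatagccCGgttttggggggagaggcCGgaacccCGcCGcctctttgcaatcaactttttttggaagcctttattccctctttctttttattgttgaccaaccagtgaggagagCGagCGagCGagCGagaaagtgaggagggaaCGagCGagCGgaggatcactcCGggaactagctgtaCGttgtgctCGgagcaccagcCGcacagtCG
Jun (chr4:95052173-95052472, - strand): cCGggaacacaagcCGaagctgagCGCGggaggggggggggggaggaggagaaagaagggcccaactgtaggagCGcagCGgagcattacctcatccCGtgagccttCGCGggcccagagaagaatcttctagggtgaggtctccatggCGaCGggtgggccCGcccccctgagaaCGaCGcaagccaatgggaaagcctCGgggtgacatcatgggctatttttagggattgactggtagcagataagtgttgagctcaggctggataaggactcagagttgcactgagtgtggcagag
Foxa1 (chr12:57546062-57546361, - strand): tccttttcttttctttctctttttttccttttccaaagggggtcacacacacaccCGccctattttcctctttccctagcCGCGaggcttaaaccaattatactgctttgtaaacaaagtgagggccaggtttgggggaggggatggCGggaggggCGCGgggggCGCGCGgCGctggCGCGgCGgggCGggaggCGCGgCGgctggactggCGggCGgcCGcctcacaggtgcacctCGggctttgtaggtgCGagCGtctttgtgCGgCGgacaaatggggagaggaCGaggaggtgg

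Erbb4 held 17 CG dinucleotides and no GC box, Jun held 15 with 1 GC box, and Foxa1 held 26 with 3 GC boxes. Erbb4 and Jun were thus nearer to the median promoter than the 5 promoters that were broad everywhere.

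One broad region had no protein-coding gene end but lay next to microRNA genes, the miR-17 cluster, whose transcription is known to be driven by E2F factors and Myc. It was chosen after its values were seen. The mature sequences follow, with bases 2 to 8 (the seed) in capitals. miR-17-5p and miR-20a-5p share the seed AAAGUGC, and miR-19a-3p and miR-19b-3p share GUGCAAA.
miR-17-5p: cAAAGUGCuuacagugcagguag
miR-20a-5p: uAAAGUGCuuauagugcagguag
miR-18a-5p: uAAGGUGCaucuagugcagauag
miR-19a-3p: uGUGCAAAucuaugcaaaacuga
miR-19b-3p: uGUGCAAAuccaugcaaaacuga
miR-92a-3p: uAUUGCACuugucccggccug

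Broad peaks were rare in each list, and their number did not follow list length. They made up 0.565% of peaks for Tumor Sox9 (95% interval 0.494 to 0.644%), 0.775% for Prog-like CK19 (0.712 to 0.842%), 0.212% for Prog-like Sox9 (0.179 to 0.250%), 0.330% for EpCAM-high CK19 (0.285 to 0.381%) and 0.133% for EpCAM-high Sox9 (0.105 to 0.166%). Prog-like CK19 held most, and in both pairs named for CK19 and Sox9 the CK19 list held more. Median widths over all peaks moved the same way: 520 bp in Prog-like CK19 and 399 bp in Prog-like Sox9, 439 bp in EpCAM-high CK19 and 349 bp in EpCAM-high Sox9, with 495 bp in Tumor Sox9. The part of read depth in these differences was not tested. In bulk samples, more cells open at a site and a more open site per cell cannot be told apart.

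**Figure D1:**
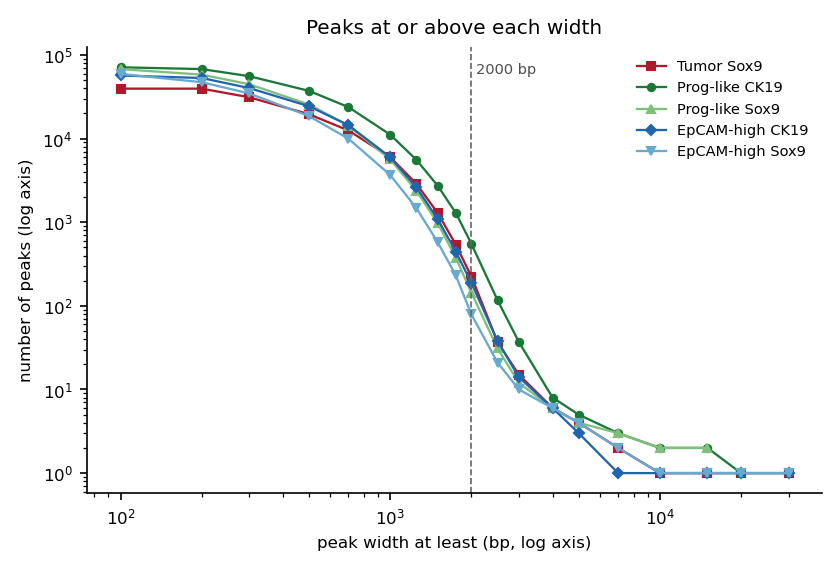
Number of peaks at least as wide as the value on the x axis (bp), on a log y axis, for each of the 5 lists, with the 2000 bp limit as a dashed line. At that limit Prog-like CK19 stood highest with 553 peaks and EpCAM-high Sox9 lowest with 79.

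Most broad peaks were only just broad. Their median width was 2210.5 bp in Tumor Sox9, 2216 bp in Prog-like CK19, 2201.5 bp in Prog-like Sox9, 2186.5 bp in EpCAM-high CK19 and 2251 bp in EpCAM-high Sox9, and 15, 37, 12, 14 and 10 peaks in the same order reached 3000 bp. The limit cut through a continuous tail: 77, 139, 36, 54 and 23 peaks lay within 100 bp above it, next to 103, 258, 72, 80 and 46 within 100 bp below it. The narrowest broad peaks measured 2000 to 2003 bp and the widest others 1998 to 1999 bp. In these narrow strips, just inside the limit 81.8, 61.2, 77.8, 81.5 and 82.6% of peaks lay at a gene end, and just outside it 82.5, 58.1, 73.6, 68.8 and 82.6%.

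The fold enrichment that the authors' peak caller gave was somewhat higher for broad peaks, and the significance was far higher. The median fold was 5.94 for broad and 5.62 for narrower peaks in Tumor Sox9, 8.52 and 6.89 for Prog-like CK19, 9.45 and 7.97 for Prog-like Sox9, 7.92 and 6.10 for EpCAM-high CK19, and 9.75 and 7.12 for EpCAM-high Sox9. The median −log10 q of broad peaks was 21.6, 113, 102, 58.5 and 60.5 in the same order, against 8.78, 30.6, 25.2, 14.2 and 12.9 for narrower peaks. Width and these values come from the same calls, so they are given as a description.

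Most broad peaks marked the ends of protein-coding genes. A peak was counted at a gene end when any part of it lay within 1000 bp of either end of a gene. This held for 166 of 224 broad peaks in Tumor Sox9 (74.1%, interval 67.9 to 79.7%), where 26.8% of all peaks lay at a gene end. It held for 360 of 553 for Prog-like CK19 (65.1%, 61.0 to 69.1%; all peaks 18.2%) and for 102 of 144 for Prog-like Sox9 (70.8%, 62.7 to 78.1%; all peaks 18.2%). In EpCAM-high CK19 it held for 146 of 188 (77.7%, 71.0 to 83.4%; all peaks 21.7%), and in EpCAM-high Sox9 for 58 of 79 (73.4%, 62.3 to 82.7%; all peaks 21.7%). The share among broad peaks thus lay above the share among all peaks in each list, with an interval that did not reach it.

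A wider interval touches more gene ends by its width alone, so the summit, a single base, was used too. The summit lay within 1000 bp of a gene end for 62.1% of broad peaks and 25.2% of narrower ones in Tumor Sox9, and for 52.6 and 16.4% for Prog-like CK19. The values were 61.8 and 16.9% for Prog-like Sox9, 60.6 and 20.3% for EpCAM-high CK19, and 63.3 and 20.6% for EpCAM-high Sox9. Broad peaks thus kept a larger share at gene ends than all narrower peaks together when their width could not add to it. Among peaks of 1500 bp to under 2000 bp the summit lay there for 67.4, 51.0, 62.9, 66.2 and 72.3% in the same order. Broad peaks lay above this class in Prog-like CK19 alone.

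Counted by any part of the peak, the share at gene ends climbed with width and then dropped. In Tumor Sox9 it was 9.78% under 500 bp, 34.1% from 500 bp, 65.5% from 1000 bp, 73.8% from 1500 bp and 77.0% from 2000 bp to under 3000 bp, but 33.3% at 3000 bp or more. In that class of 2000 bp to under 3000 bp it was 66.5% for Prog-like CK19, 75.8% for Prog-like Sox9, 81.6% for EpCAM-high CK19 and 81.2% for EpCAM-high Sox9. At 3000 bp or more it was 45.9, 16.7, 28.6 and 20% in the same 4 lists, so that for Prog-like Sox9 and EpCAM-high Sox9 it lay below the 18.2 and 21.7% of all peaks. The drop rests on 10 to 37 peaks per list, and it was smaller once peaks at the marked positions described further on were left out: 62.5% for Tumor Sox9, then 60.7, 50, 66.7 and 66.7%.

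**Figure D2:**
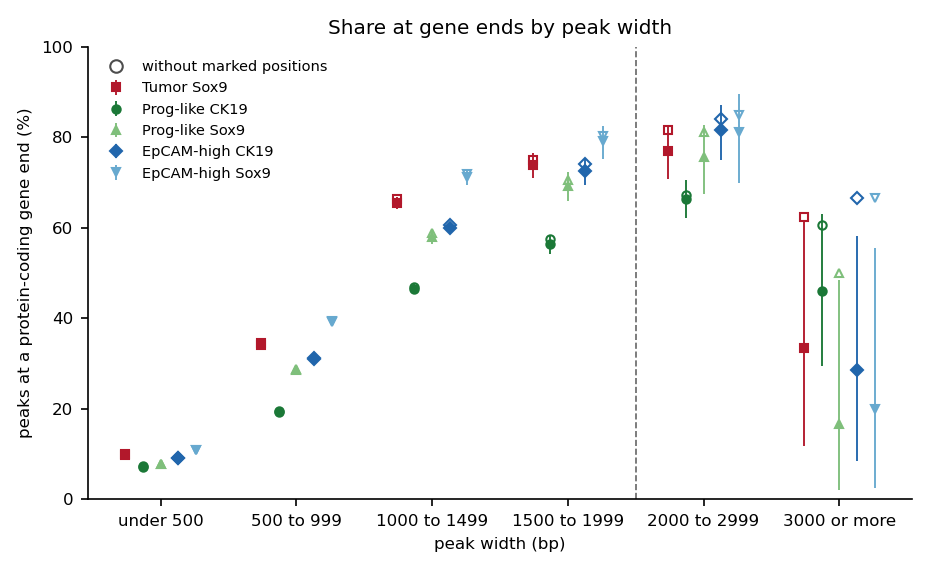
Share of peaks within 1000 bp of a protein-coding gene end (percent) by width class (bp) in each list, with exact 95% intervals as bars and open symbols for the share without marked positions. The share climbed up to the class that starts at 2000 bp, where it lay between 66.5 and 81.6%, and was lower at 3000 bp or more, where the classes hold 10 to 37 peaks.

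Broad gene-end peaks sat at starts of transcription, not at far ends. Strand was known for 17491 of the 21883 protein-coding genes, those with an entry in the promoter table. Of broad peaks, 54.9% for Tumor Sox9, 50.1% for Prog-like CK19, 54.9% for Prog-like Sox9, 60.1% for EpCAM-high CK19 and 57.0% for EpCAM-high Sox9 lay within 1000 bp of the start of such a gene, while 2, 7, 1, 2 and 0 peaks (0.893, 1.27, 0.694, 1.06 and 0%) in the same order lay at a far end alone. For narrower peaks the shares were 20.3, 12.7, 13.1, 16.2 and 16.2% at a start and 1.46, 1.87, 1.70, 1.16 and 1.29% at a far end alone. Few peaks at far ends alone were thus common to both width classes. Broad peaks covering a single annotated start reached a median of 823, 933, 913, 801.5 and 912 bp upstream of it and 1318, 1298, 1398, 1363 and 1403 bp downstream, so they spread further into the transcribed side. Of these peaks, 70.3, 62.2, 62.7, 67.4 and 68.6% reached further downstream than upstream, as did 66.4, 62.1, 61.6, 62.3 and 63.9% of narrower peaks. The lean was thus much the same in both width classes, while the reach in bp was longer under broad peaks.

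Broad peaks also covered several starts more often. Among peaks that covered an annotated start, 30.5% of broad and 17.7% of narrower ones in Tumor Sox9 covered 2 or more starts, and the values were 25.5 and 17.6% for Prog-like CK19. They were 27.2 and 17.4% for Prog-like Sox9, 20 and 16.8% for EpCAM-high CK19, and 27.1 and 16.1% for EpCAM-high Sox9. A wider peak has more room for a further start. In 19, 28, 12, 8 and 5 broad peaks the starts belonged to genes on opposite strands, such as Cbx3 and Hnrnpa2b1. Of broad peaks with a start, 14.5, 9.60, 14.8, 6.96 and 10.4% covered starts of 2 or more genes. For narrower peaks with a start this was 8.89, 8.71, 8.79, 8.16 and 7.79%. The 2 classes were thus close in Prog-like CK19, and in EpCAM-high CK19 broad peaks had the lower share.

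All 774 merged regions could be placed. Of these, 523 (67.6%) lay at the end of a protein-coding gene, 51 (6.59%) at another annotated start within one, 27 (3.49%) at the end of a long noncoding RNA gene and 8 at another noncoding gene or pseudogene. A further 71 (9.17%) lay elsewhere within a protein-coding gene, 73 (9.43%) lay between genes, and 21 lay at marked positions with none of these. The peaks away from genes came mostly from 1 list: 61 of the 553 broad peaks of Prog-like CK19 lay between genes, against 9, 6, 7 and 1 for Tumor Sox9, Prog-like Sox9, EpCAM-high CK19 and EpCAM-high Sox9. Peaks under 2000 bp were spread otherwise: 35.3% of them lay between genes in Tumor Sox9 and 33.7% for Prog-like CK19.

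Many of the widest intervals were not at gene ends. Some positions in a mouse assembly are prone to collect reads from more than 1 place, and 4 kinds were marked: sequences not placed on a chromosome and chromosome Y, the first stretch of each chromosome before 3.2 Mb, 6 windows of 1 Mb known for collapsed repeats or nuclear copies of mitochondrial DNA, and small noncoding RNA genes or pseudogenes with no protein-coding gene. Broad peaks at such positions numbered 19 of 224 for Tumor Sox9 (8.48%), 18 of 553 for Prog-like CK19 (3.26%), 17 of 144 for Prog-like Sox9 (11.8%), 13 of 188 for EpCAM-high CK19 (6.91%) and 10 of 79 for EpCAM-high Sox9 (12.7%). Over all peaks the shares were 1.34, 1.20, 1.23, 1.22 and 0.964%. At 3000 bp or more they were 7 of 15, 9 of 37, 8 of 12, 8 of 14 and 7 of 10 peaks, and among the 10 widest peaks of each list 7, 6, 8, 7 and 7.

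A single region near the start of the assembled sequence of chromosome 9 was the widest in each list. It spanned chr9:3000084-3038055, as 1 peak of 37762 bp in Tumor Sox9, 37967 bp in EpCAM-high CK19 and 37494 bp in EpCAM-high Sox9. In the Prog-like lists it was split into 2 peaks, 20322 and 17098 bp in Prog-like CK19, and 19843 and 17101 bp in Prog-like Sox9. Its nearest protein-coding gene, Alkbh8, lay 297364 bp from the Tumor Sox9 peak, and the microRNA gene Mir101c lay 614 bp from the region.

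The unplaced sequence JH584304 held 5 regions that were broad in every list. The widest of these measured 7254 bp in Tumor Sox9, 7945 bp in Prog-like CK19, 7241 bp in Prog-like Sox9, 5890 bp in EpCAM-high CK19 and 7254 bp in EpCAM-high Sox9, with a fold of 22.0 to 31.5. A region on the unplaced sequence GL456389 had the highest fold of the regions broad in every list: 43.7 for Tumor Sox9, 49.8 for Prog-like CK19, 52.2 for Prog-like Sox9, 49.3 for EpCAM-high CK19 and 59.6 for EpCAM-high Sox9.

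Median enrichment was higher at the marked positions than at other wide peaks, although single peaks overlapped. At 3000 bp or more, peaks at marked positions had a median fold of 20.6, 20.3, 19.5, 22.0 and 25.4 in the 5 lists, against 4.80, 6.17, 7.34, 6.23 and 7.97 for the others. A marked JH584304 interval of 4048 to 4115 bp had folds of 6.89, 8.95, 10.4, 7.91 and 10.4, and a marked interval near the start of chromosome 4 had 5.79 in Prog-like Sox9 and 4.18 in EpCAM-high CK19. Taking all broad peaks at marked positions, they carried 17.1, 6.90, 22.7, 16.6 and 31.2% of the base pairs under broad peaks, and 2 of them lay at a protein-coding gene end, both in Prog-like CK19. No repeat annotation or mappability track was used here, so the part of multiply mapped reads in these peaks was not tested.

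The widest interval outside the marked positions lay within Tmem267, a gene for a transmembrane protein, at chr13:119596311-119602948. It measured 5828 bp in Tumor Sox9, 6598 bp in Prog-like CK19, 5758 bp in Prog-like Sox9, 6509 bp in EpCAM-high CK19 and 6613 bp in EpCAM-high Sox9, with folds of 10.1, 12.4, 11.1, 11.1 and 11.6. It was thus of like width in each list, lay away from the ends of its gene, and had a fold between the medians of the marked and the other wide peaks. The other wide peaks at genes were list-specific in rank. Adgrl2, an adhesion receptor gene, measured 3297 bp and Tle1, a Groucho-type corepressor gene, 3260 bp in Tumor Sox9. Brd2 and H2-DMa shared a peak of 3702 bp in Prog-like CK19, where Tmem37 measured 3656 bp. Erbb4 measured 3557 bp and Hivep2 3213 bp in EpCAM-high CK19, and Sall1, a zinc finger gene of organ development, measured 3339 bp in EpCAM-high Sox9.

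A total of 602 protein-coding genes (2.75% of 21883) had a broad peak at an end in at least 1 list, and 27 (0.123%) had one in all 5. By list there were 196 for Tumor Sox9 (0.896%), 415 for Prog-like CK19 (1.90%), 120 for Prog-like Sox9 (0.548%), 167 for EpCAM-high CK19 (0.763%) and 70 for EpCAM-high Sox9 (0.320%). The 602 genes were long: their median length was 37.9 kb, against 21.9 kb for genes with narrower end peaks alone and 7.58 kb for genes with no end peak. Of the 602 genes, 512 (85.0%) had an end peak of some width in all 5 lists, as had 64.6% of genes with narrower end peaks alone.

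Of the 27 genes that were broad in every list, Tsc22d2, a member of the TSC22 family of leucine zipper proteins, measured 2790 bp in Tumor Sox9, 3468 bp in Prog-like CK19, 3047 bp in Prog-like Sox9, 2952 bp in EpCAM-high CK19 and 2943 bp in EpCAM-high Sox9. Its summed width was the largest apart from LOC108167694 and Gm20783, which shared a peak of 3030, 2999, 3030, 3132 and 3037 bp and to which no role is given here. Tent5a, a noncanonical poly(A) polymerase, measured 2237, 3047, 2674, 2588 and 2450 bp in the same order, and the small GTPase gene Rap2b 2019, 2983, 2876, 2591 and 2526 bp. In all 3 of Tsc22d2, Tent5a and Rap2b, Prog-like CK19 was widest and Tumor Sox9 narrowest. Adgrl2 ran otherwise, at 3297, 2997, 2033, 3183 and 2202 bp, widest in Tumor Sox9.

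Klf13, a zinc finger factor that binds GC-rich sites, varied little, with 2441 bp in Tumor Sox9, 2523 bp in Prog-like CK19, 2456 bp in Prog-like Sox9, 2509 bp in EpCAM-high CK19 and 2506 bp in EpCAM-high Sox9. Others of the 20 genes with the largest summed width were Pou2f1 and Sp3 (DNA-binding factors), Ncoa2 (a nuclear receptor coactivator), Kmt2e, Rcor3, Sinhcaf and Kansl1l (chromatin complexes), Cbx3 (a heterochromatin protein) with its divergent neighbour Hnrnpa2b1, and the transcription kinase Cdk13. Their widths ranged from 2011 to 3049 bp. Man2a1, a Golgi mannosidase, measured 2339 to 2638 bp, and Crlf2, a cytokine receptor subunit, 2107 to 2283 bp. The remaining 7 of the 27, outside the 20 genes with the largest summed width, were Rdh10, Rpl7, Lpxn, Zfp91, Ift80, Smc4 and Nfe2l2. Nfe2l2, the factor of the antioxidant response, was even across lists at 2050, 2073, 2068, 2074 and 2033 bp.

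**Figure D3:**
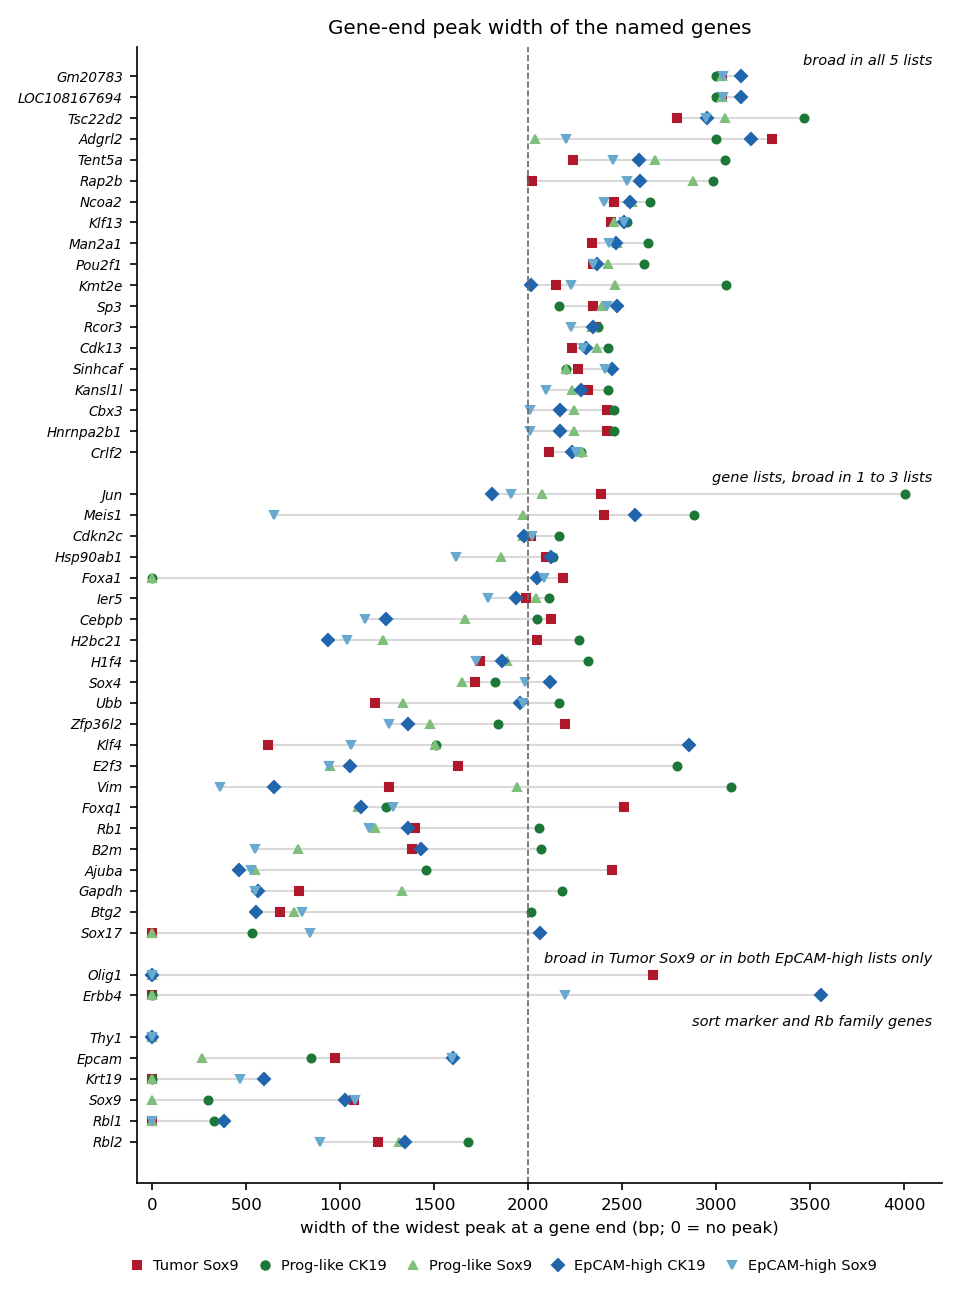
Width (bp) of the widest gene-end peak of the named genes described here in the 5 lists, with 0 for no peak within 1000 bp of an end and the 2000 bp limit as a dashed line. Genes broad in every list lie above the limit by their choice, with Adgrl2 spread from 2033 to 3297 bp and Klf13 from 2441 to 2523 bp, while Jun spans 1805 to 4001 bp and Vim 362 to 3077 bp.

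The 16 gene lists hold 271 different protein-coding genes that could be matched. Of these, 22 (8.12%) had a broad end peak in some list, against 2.75% of all protein-coding genes, and the highest count was among immediate early genes. Of 28 immediate early genes, which are induced within minutes by growth factors or stress, 6 (21.4%) were broad somewhere: Jun, Ier5, Cebpb, Zfp36l2, Klf4 and Btg2. By list this was 3 for Tumor Sox9, 4 for Prog-like CK19, 2 for Prog-like Sox9, 1 for EpCAM-high CK19 and 0 for EpCAM-high Sox9. The lists were chosen with earlier results of these data known, so these shares are a description.

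Jun, an AP-1 subunit, measured 2386 bp in Tumor Sox9, 4001 bp in Prog-like CK19, 2073 bp in Prog-like Sox9, 1805 bp in EpCAM-high CK19 and 1910 bp in EpCAM-high Sox9. The Prog-like CK19 peak, chr4:95050044-95054044, reached from within this intronless gene, which lies at chr4:95049036-95052222 on the − strand, to its upstream side. Cebpb, a leucine zipper factor of liver and myeloid cells, measured 2121, 2045, 1660, 1244 and 1133 bp in the same order, and Ier5 1988, 2107, 2042, 1934 and 1787 bp. Both were narrowest in EpCAM-high Sox9. Klf4, an epithelial zinc finger factor, had 615, 1510, 1504, 2855 and 1054 bp, widest in EpCAM-high CK19 and narrowest in Tumor Sox9. Zfp36l2, an RNA-binding protein of mRNA decay, reached 2194 bp in Tumor Sox9 alone, and Btg2 reached 2012 bp in Prog-like CK19 alone. Other members stayed narrower: Fos measured 822, 1419, 986, 840 and 677 bp, and Egr2 had no end peak in any list.

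Of the lineage genes, 1 of 15 hepatocyte factor genes and 1 of 15 biliary and epithelial factor genes (6.67% each) were broad in some list, against 2.75% of all protein-coding genes. Counts this small do not set the lists apart from all genes. Foxa1, a pioneer factor of liver development, measured 2185 bp in Tumor Sox9, 2047 bp in EpCAM-high CK19 and 2084 bp in EpCAM-high Sox9. In the Prog-like lists the same region held peaks of 672 bp (CK19) and 636 bp (Sox9), which did not come within 1000 bp of an outer end of Foxa1. They were counted at an end of Ttc6, a gene that starts within Foxa1. The Foxa1 start printed above also lies inside those outer ends, so this count does not show that start to be closed. Sox4, a progenitor factor, was the biliary and epithelial one, with 1718 bp in Tumor Sox9, 1824 bp in Prog-like CK19, 1647 bp in Prog-like Sox9, 2115 bp in EpCAM-high CK19 and 1980 bp in EpCAM-high Sox9. None of 19 hepatocyte product genes and none of 15 epithelial structure genes was broad in any list. With 2.75% of all protein-coding genes broad somewhere, a count of 0 in lists this short does not set them apart either. Of the sort markers and keratin genes, Epcam measured 969, 846, 262, 1599 and 1596 bp in list order. Krt19 had 596 bp in EpCAM-high CK19 and 466 bp in EpCAM-high Sox9 and no end peak elsewhere, and Thy1 had none in any list. Sox9 measured 1071, 298, 0, 1024 and 1076 bp, with 0 for no peak.

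Of genes of other liver cell types, 1 endothelial and 1 stellate and mesenchymal gene passed the limit and no macrophage gene did. In some list 2.75% of all protein-coding genes did, so counts this small do not set these gene lists apart. Of 21 macrophage genes none was broad in any list, but 6 had an end peak in Tumor Sox9, 20 for Prog-like CK19, 20 for Prog-like Sox9, 7 for EpCAM-high CK19 and 8 for EpCAM-high Sox9. Of all 21883 protein-coding genes, 11184, 12556, 11905, 12653 and 12628 had an end peak in the same order. Csf1r, the receptor that macrophages need to survive, measured 1392 bp in Prog-like CK19 and 847 bp in Prog-like Sox9, and Clec4f, a Kupffer cell gene, 1684 and 1527 bp, with no end peak in the other 3 lists. Cybb had none in any list. Of 12 endothelial genes only Sox17 was broad (8.33%), with 2060 bp in EpCAM-high CK19, 838 bp in EpCAM-high Sox9, 529 bp in Prog-like CK19 and no end peak in the other lists. Of 12 stellate and mesenchymal genes only Vim, the intermediate filament gene that macrophages and mesenchymal cells share, was broad, with 1260 bp in Tumor Sox9, 3077 bp in Prog-like CK19, 1938 bp in Prog-like Sox9, 649 bp in EpCAM-high CK19 and 362 bp in EpCAM-high Sox9. The makeup of the sorted cells behind each list was not tested.

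Genes of the cell cycle and of general upkeep gave a few cases each. The shares broad in some list were 12% of E2F and cell cycle, 15% of housekeeping and 0% of ribosomal protein genes. Of all protein-coding genes 2.75% were, and these small counts are a description. Of 25 E2F and cell cycle genes, 3 were broad: Cdkn2c, an inhibitor of CDK4 and CDK6, at 2016, 2161, 1970, 1978 and 2017 bp in list order, E2f3 at 1626, 2791, 944, 1053 and 938 bp, and Rb1 at 1398, 2057, 1183, 1358 and 1154 bp. Cdkn2c thus lay close to the limit in each list, while E2f3 and Rb1 passed it in Prog-like CK19 alone. The other family members did not reach it: Rbl2 measured 1202, 1681, 1310, 1342 and 889 bp, and Rbl1 had 327 bp in Prog-like CK19 and 383 bp in EpCAM-high CK19 and no end peak elsewhere. Of 20 housekeeping genes, Ubb, B2m and Gapdh were broad, all in Prog-like CK19 alone. Gapdh, a glycolytic enzyme gene, measured 780, 2176, 1326, 563 and 545 bp. None of 20 ribosomal protein genes was broad, with median end widths of 648, 917, 721, 598 and 597 bp.

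Of the other lists, 1 of 14 heat shock genes was broad (Hsp90ab1, a cytosolic chaperone, at 2095, 2131, 1855, 2121 and 1616 bp). Of 17 histone genes 2 were broad, H1f4 and H2bc21, both in Prog-like CK19 and H2bc21 also in Tumor Sox9. Of 23 developmental homeobox and related genes 2 were broad, Foxq1 at 2511 bp in Tumor Sox9 and Meis1 at 2401, 2882, 1973, 2569 and 647 bp. Meis1, a TALE homeobox factor, thus differed widely between the EpCAM-high lists, and in EpCAM-high Sox9 its region held 3 peaks. Of 18 Notch, Wnt and Hippo response genes 1 was broad, Ajuba, with 2442 bp in Tumor Sox9. Of 9 long noncoding and small RNA host genes 1 had a match among the genes tested, and it was not broad. The shares broad in some list were 7.14% of heat shock, 11.8% of histone, 8.70% of developmental and 5.56% of response genes. Of all protein-coding genes 2.75% were, and these small counts too are a description.

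Promoters under a broad peak were richer in CG than those under narrower peaks. The observed over expected CpG ratio compares the count of CG with what the C and G content would give. Its median was 0.897 under broad peaks in Tumor Sox9 (185 promoters), 0.833 for Prog-like CK19 (413), 0.913 for Prog-like Sox9 (115), 0.848 for EpCAM-high CK19 (153) and 0.920 for EpCAM-high Sox9 (69). Under narrower peaks it was 0.797, 0.783, 0.794, 0.786 and 0.786, and with no peak 0.254, 0.238, 0.250, 0.225 and 0.227. The step from no peak to a narrow peak was thus far larger than the step from narrow to broad. Counts of CG per 300 bases had medians of 33, 27, 33, 31 and 32 under broad peaks, against 22 under narrower ones and 4 without a peak in each list.

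**Figure D4:**
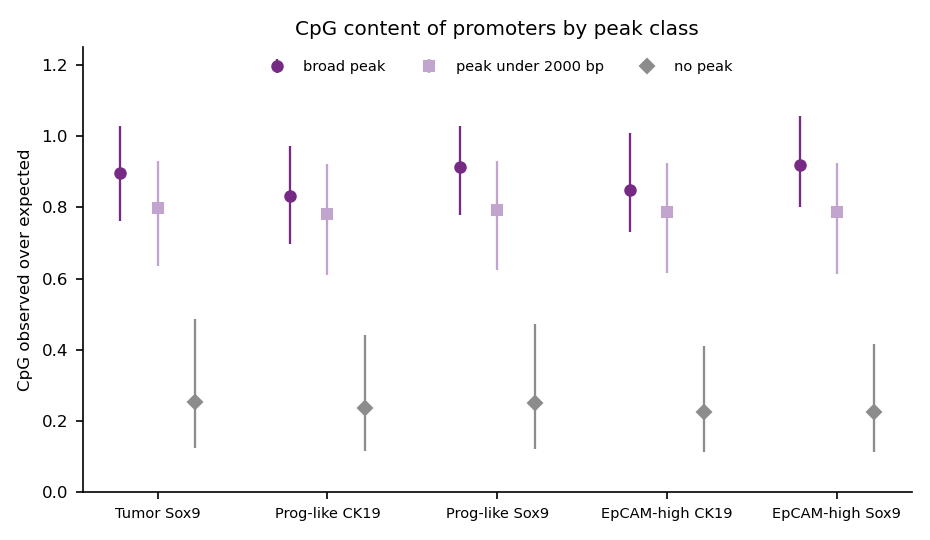
Observed over expected CpG ratio of 300 base promoters under a broad peak, under a narrower peak and under no peak in each list, with the median as a point and the quartiles as a bar. Medians lay between 0.833 and 0.920 under broad peaks, between 0.783 and 0.797 under narrower peaks and between 0.225 and 0.254 with no peak.

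Short motifs were counted on both strands of the same promoters. Each annotated start counts as a promoter, so 1 gene can hold several. The 69 broad promoters of EpCAM-high Sox9 belong to 53 genes and the 185 of Tumor Sox9 to 151. Such promoters are not independent, so intervals on these shares are too narrow. The GC box GGGCGG was present in 75.7, 74.1, 84.3, 82.4 and 81.2% of promoters under broad peaks, 68.8, 66.9, 67.5, 68.5 and 68.8% under narrower peaks, and 46.2% of all promoters. The E2F core GCGGGAA was present in 14.6, 14.5, 15.7, 17.6 and 14.5% under broad peaks, 9.23, 8.82, 8.97, 8.92 and 8.99% under narrower peaks, and 5.95% of all. Of the promoters printed above, Tent5a held it. Both motifs contain CG, of which broad promoters had more.

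The ETS core, the CCAAT box and the NRF1 core were less frequent under broad peaks than under narrower ones in each list, and 3 other motifs ran in different directions by list. The ETS core CGGAAG, which also contains CG, was present in 21.1, 27.1, 25.2, 19 and 26.1% under broad and 34.8, 33.9, 34.8, 32.7 and 32.5% under narrower peaks. The CCAAT box CCAAT was present in 28.6, 29.8, 22.6, 29.4 and 30.4% under broad and 39.2, 38.8, 39.1, 38.7 and 38.6% under narrower peaks. The NRF1 core GCATGCG was present in 3.78, 5.81, 4.35, 2.61 and 0% under broad and 7.26, 6.94, 7.13, 6.79 and 6.76% under narrower peaks, where 0 of 69 promoters in EpCAM-high Sox9 allows up to 5.21%. The E-box CACGTG was somewhat more frequent under broad peaks in 4 lists, with 12.4, 12.1, 12.2, 11.1 and 8.70% under broad and 10.8, 10.5, 10.8, 10.5 and 10.5% under narrower peaks. The AP-1 site TGANTCA was present in 1.08, 5.57, 4.35, 1.96 and 4.35% under broad and 4.47, 4.51, 4.54, 4.74 and 4.92% under narrower peaks. TATAAA was present in 5.41, 8.96, 6.09, 5.88 and 5.80% under broad and 6.09, 6.24, 6.26, 6.10 and 6.13% under narrower peaks. AP-1 and TATAAA were thus more frequent under broad peaks in Prog-like CK19 and less frequent in the other 4 lists, mostly within counting error. For AP-1 the interval under broad peaks missed the share under narrower peaks in Tumor Sox9 alone (0.131 to 3.85%). For TATAAA it did so in Prog-like CK19 alone (6.39 to 12.1%), and for the E-box in no list. For the ETS core and the CCAAT box it did so in each list but EpCAM-high Sox9 (16.3 to 38.1% and 19.9 to 42.7%). For the NRF1 core it did so in both EpCAM-high lists alone. A match describes the letters in the window and is not a bound site.

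Broad regions were open in most lists but broad in few. Of the 774 regions, 572 (73.9%, interval 70.7 to 77.0%) overlapped a peak of every list, where this held for 9.75% of the merged regions of all peaks. An overlap of 1 bp was enough, so a wide region meets more peaks of other lists by its width alone. The part of width in this difference was not tested. The numbers of regions with a peak in exactly 1, 2, 3 and 4 lists were 1, 88, 52 and 61. A broad peak in every list was seen in 35 regions (4.52%), and 556, 118, 43 and 22 regions were broad in 1, 2, 3 and 4 lists. The sole region with a peak in 1 list was that of Olig1, a helix-loop-helix gene known from glial cells, with 2665 bp in Tumor Sox9.

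Sharing climbed with width, to which the longer reach of a wide peak adds by itself. Broad peaks that overlapped a peak of each other list made up 89.7% for Tumor Sox9, 73.6% for Prog-like CK19, 91.7% for Prog-like Sox9, 81.9% for EpCAM-high CK19 and 93.7% for EpCAM-high Sox9. Among peaks of 1000 bp to under 2000 bp the shares were 78.0, 55.8, 69.7, 67.8 and 77.8%, and among all peaks under 2000 bp 33.9, 18.5, 19.9, 23.8 and 23.2%. Regions with a peak in every list lay at a gene end in 453 of 572 cases (79.2%), against 70 of 202 (34.7%) for the others.

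**Figure D5:**
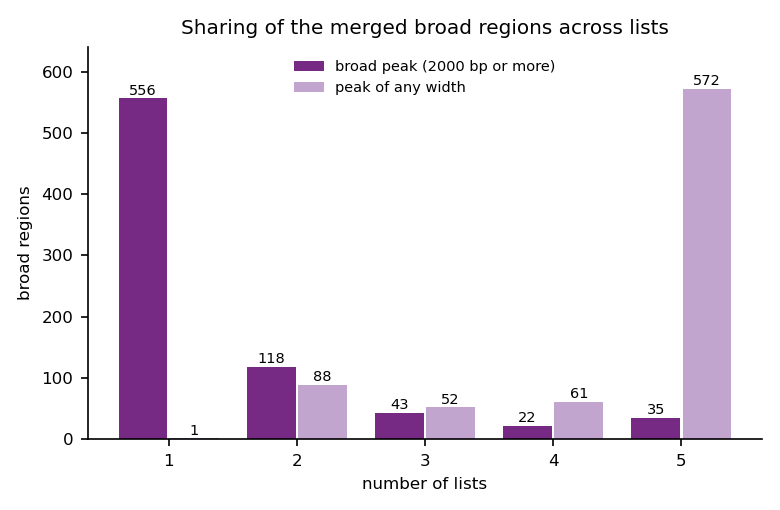
Number of the 774 broad regions by how many of the 5 lists held any peak there and by how many held a broad peak. Most regions, 572, held a peak in all 5 lists, whereas 556 were broad in a single list and 35 in all 5.

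Regions that were broad in 1 list looked different elsewhere, depending on the pair of lists. Prog-like CK19 alone was broad at 376 regions, and all 376 held a peak of Prog-like Sox9. In 298 of them (79.3%) Prog-like Sox9 had 2 or more peaks in the region, and its peaks covered a median of 72.8% of a region. Of the same 376 regions, 119 held no peak of Tumor Sox9, 94 none of EpCAM-high CK19 and 97 none of EpCAM-high Sox9. Where those 3 lists had a peak there, it was split into 2 or more in 27.2, 28.0 and 36.9% of cases.

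EpCAM-high CK19 alone was broad at 65 regions, all with a peak of EpCAM-high Sox9, as 2 or more peaks in 46 (70.8%). For Tumor Sox9, Prog-like CK19 and Prog-like Sox9 the share split, of the regions with a peak, was 22.7, 30.9 and 28.9%. Tumor Sox9 alone was broad at 96 regions. They were split into 2 or more peaks in 21.3% of those with a peak of Prog-like CK19, 17.7% for Prog-like Sox9, 29.2% for EpCAM-high CK19 and 44.7% for EpCAM-high Sox9. Splitting was thus more frequent between lists with the same cell name than between others in the first 2 cases. Prog-like Sox9 alone was broad at 15 regions and EpCAM-high Sox9 at 4.

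Taken over the smaller list of a pair, lists with the same cell name shared broad peaks most. Of the 144 broad peaks of Prog-like Sox9, 117 (81.3%) were broad in Prog-like CK19, which is 116 (21.0%) of the 553 of Prog-like CK19. Of the 79 broad peaks of EpCAM-high Sox9, 63 (79.7%) were broad in EpCAM-high CK19, which is 64 (34.0%) of its 188. Between Tumor Sox9 and EpCAM-high Sox9 the shares were 57 of 224 (25.4%) and 57 of 79 (72.2%). Between Tumor Sox9 and Prog-like CK19 they were 96 of 224 (42.9%) and 97 of 553 (17.5%). Taken over the larger list, lists with the same cell name did not share most. EpCAM-high CK19 was broad at 37.5% of the broad peaks of Tumor Sox9, and Prog-like Sox9 at 35.1% of those of EpCAM-high CK19. The part of list size in this order was not tested.

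The 35 regions broad in every list fell into 3 kinds. The first, 8 regions, lay at marked positions, 7 of them on unplaced sequences, with a median width of 4429.5 bp and no gene end. The next 22 lay at a gene end, with a median width of 2355.5 bp, and their borders were close between lists: the 5 starts of a region differed by a median of 155 bp and the 5 ends by 173.5 bp. The other 5 lay away from protein-coding ends. They were the interval within Tmem267, another start of the kinase gene Dyrk2 (2477, 2325, 2111, 2718 and 2003 bp), and the ends of 3 long noncoding RNA genes: Gm7854 at Cpeb2, 2700054A10Rik and 2410080I02Rik. At 2700054A10Rik the 5 starts differed by 24 bp and the 5 ends by 18 bp, with widths of 2412, 2429, 2408, 2399 and 2394 bp.

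Of the 22 regions broad in 4 lists, 18 lay at a gene end. Irs2, the insulin receptor substrate of liver, measured 2336 bp in Tumor Sox9, 2774 bp in Prog-like Sox9, 2891 bp in EpCAM-high CK19 and 2863 bp in EpCAM-high Sox9, but 1294 bp in Prog-like CK19. The region at the ends of Cnot6l, a deadenylase subunit gene, and Gm52799 ran the same way: its widest peak measured 2948, 2638, 2730 and 2296 bp in those 4 lists, against 1495 bp in Prog-like CK19. Counted at the end of Cnot6l itself, the peak was broad in Tumor Sox9 and EpCAM-high CK19 alone. The list with most broad peaks was thus not the widest at each region. The region next to the miR-17 cluster, at chr14:115040164-115042642, followed this pattern too, with 2479 bp in Tumor Sox9, 1061 bp in Prog-like CK19, 2306 bp in Prog-like Sox9, 2297 bp in EpCAM-high CK19 and 2232 bp in EpCAM-high Sox9. It ended 1029 bp before the Mir17 hairpin, on the upstream side of a cluster transcribed from the + strand, and its nearest protein-coding gene was Gpc5. Irs2 and the Cnot6l region, like this one, were chosen after their values were seen.

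Some broad regions had no peak at all in part of the lists. In 79 regions both Prog-like lists held a peak and the other 3 did not, and 12 of these (15.2%) lay at a gene end. The share was 67.6% of all 774 regions and 34.7% of the 202 without a peak in every list. Of all peaks in each Prog-like list, 18.2% lay at a gene end. None of the 12 regions was broad in both Prog-like lists. The 12 regions, each broad in Prog-like CK19 alone, are given with their widest peak in Prog-like CK19 and then in Prog-like Sox9. They lay at Cgas, the gene of a cytosolic DNA sensor (2654 and 1718 bp), the cytokine gene Tgfb1 (2539 and 1771 bp), the leukocyte receptor gene Lilr4b (2551 and 1685 bp) and the phospholipase family gene Pld4 (2444 and 1122 bp). The next were at the kinetochore gene Nsl1 (2185 and 1348 bp), Sirpb1a (2285 and 895 bp), Mndal (2522 and 525 bp) and Arhgef6 (2422 and 621 bp). The others were at Arhgdib (2088 and 863 bp), the mitochondrial carrier gene Slc25a12 (2088 and 765 bp), Osgin1 (2040 and 660 bp) and the leukocyte integrin gene Itgb2 (2098 and 480 bp). Of the macrophage genes, 20 of 21 had an end peak in each Prog-like list and 6 to 8 in the others. Of all 21883 protein-coding genes, 11905 to 12556 had one in the Prog-like lists and 11184 to 12653 in the others. The part of macrophages in these regions was not tested.

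A further 18 regions had peaks in Tumor Sox9 and both EpCAM-high lists and in no Prog-like list, and 9 lay at a gene end. They included Sall1 (1534 bp in Tumor Sox9, 1726 bp in EpCAM-high CK19 and 3339 bp in EpCAM-high Sox9), the desmosome gene Dsp (2087, 2245 and 1140 bp) and the gluconeogenic enzyme gene Fbp1 (2025, 675 and 543 bp). In 44 regions every list but Tumor Sox9 held a peak, 26 of them at a gene end, such as the ETS factor gene Etv1 (2529, 2349, 2363 and 1349 bp in Prog-like CK19, Prog-like Sox9, EpCAM-high CK19 and EpCAM-high Sox9). Both EpCAM-high lists alone held a peak in 6 regions, 4 at gene ends. The shares at a gene end were thus 50, 59.1 and 66.7% for these sets of 18, 44 and 6 regions. They compare with 67.6% of all 774 regions and 34.7% of the 202 without a peak in every list. By gene, Erbb4, a receptor tyrosine kinase of the EGF receptor family, was the 1 gene broad in both EpCAM-high lists with no end peak elsewhere, with 3557 bp in EpCAM-high CK19 and 2195 bp in EpCAM-high Sox9, and no gene met that rule for the Prog-like lists.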

How the data were processed

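The values were 5 peak lists in the narrowPeak layout, deposited by the authors for mouse liver cells. The submitters' processing notes name Bowtie 1.1.2, HOMER, MACS2, deepTools and the build mm10, with no role or order. The sources used here give no other version and do not state pooling of libraries, read shifting or duplicate handling. The deposited fold enrichment is a linear ratio, the deposited significance columns are −log10 p and −log10 q values, and the deposited score column is scaled from them; all served as description only. Widths, overlaps (1 bp minimum) and shares were computed with Python 3.11.15, pandas 2.3.3 and numpy 2.4.6, and exact 95% intervals with scipy 1.17.1. The overlap and gene-end counts were tested on simulated data. Genes came from the RefSeq annotation of GRCm38.p6, and strand and promoters from its promoter table, which holds 17491 of the 21883 protein-coding genes.

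The members, the gene lists and the naming rule were chosen with earlier results of these data known. The rule took the 10 widest peaks per list, up to 20 genes broad in all 5 lists by summed width, up to 30 list genes broad in any list, up to 5 genes broad in 1 kind of list with no end peak elsewhere, and Thy1, Epcam, Krt19, Sox9, Rb1, Rbl1 and Rbl2. Promoters not under the peak were skipped, and every gene or microRNA named outside this rule was chosen after its values were seen. Transcripts and repeats were not analysed here. A pair of items that met these criteria is not reported here. Alternatives covered the width limit, list length, −log10 q, autosomes, the gene-end window, the summit, the gene classes, the overlap and leaving out Prog-like CK19.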

Additional observations from a re-analysis of the deposited data

How the results depend on the processing

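Of 101 alternative values, 63 stayed within the interval or 1.5 times of the value reported and 38 moved. The number of broad peaks depended most on the width limit, with 1290, 2737, 976, 1088 and 577 peaks at 1500 bp and 15, 37, 12, 14 and 10 at 3000 bp (Tumor Sox9, Prog-like CK19, Prog-like Sox9, EpCAM-high CK19, EpCAM-high Sox9, an order kept throughout). The share at gene ends was 58.1% in Prog-like CK19 at 1500 bp and 33.3, 45.9, 16.7, 28.6 and 20% at 3000 bp, where Prog-like Sox9 and EpCAM-high Sox9 thus fell below the 18.2 and 21.7% of all peaks. By the summit it was 62.1, 52.6, 61.8 and 60.6% in the first 4 lists. With all annotated genes it was 79.9% in Tumor Sox9 and 72.0% in Prog-like CK19, and with other annotated starts 71.4% in Prog-like CK19. Without marked positions it was 81.0% in Tumor Sox9, 80.3% for Prog-like Sox9, 83.4% for EpCAM-high CK19 and 84.1% for EpCAM-high Sox9. Broad regions with a peak in every list made up 66.5% at equal list length, 66.5% at 1500 bp, 80.4% at 3000 bp and 83.2% over the 4 lists without Prog-like CK19. Regions broad in every list made up 15.2% at 3000 bp and 10.1% without Prog-like CK19. Marked positions took 46.7, 24.3, 66.7, 57.1 and 70.0% of broad peaks at 3000 bp. The alternatives with other starts, without Prog-like CK19 and of marked positions were chosen after seeing the data, and the cause of these shifts was not tested. No paired analysis was possible because the peak lists carry no replicate numbers and no result comes from a test.

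Width depends on the caller's settings and on read depth, neither of which is known, so differences in width between lists cannot be told apart from differences in depth. Each list is 1 call for 1 condition, and neighbouring peaks are not independent, so the true uncertainty is wider than the intervals. Strand was known for part of the genes only.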

Other observations

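Chromosome 10 held 74 of the 774 broad regions (9.56%), against 4.57% of protein-coding genes. By list it held 10.3% of broad peaks in Tumor Sox9 (interval 6.62 to 15.0%), 8.86% in Prog-like CK19 (6.63 to 11.5%), 8.33% in Prog-like Sox9 (4.38 to 14.1%), 11.7% in EpCAM-high CK19 (7.48 to 17.2%) and 7.59% in EpCAM-high Sox9 (2.84 to 15.8%). Peaks under 2000 bp lay there in 6.15, 5.93, 6.04, 6.07 and 6.10% of cases. Some of the 5 intervals reach down to these shares, and the chromosome was chosen after all chromosomes had been seen.

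Other microRNA genes lay near broad regions too. Of 1228 placed microRNA genes, 25 lay within 3000 bp of 19 broad regions. For protein-coding genes, 602 of 21883 (2.75%) had a broad peak within 1000 bp of an end, a tighter distance. The share of microRNA genes near narrower peaks was not computed, so the count does not set microRNA genes apart. Mir141 and Mir200c, epithelial microRNAs, lay 22 bp from and within a region near Ptpn6 that measured 2088 bp in EpCAM-high CK19 and 919 bp in EpCAM-high Sox9 and held no peak in the other 3 lists. Mir1907, within Trps1, lay in a region of 3342 bp in Prog-like CK19 and 2228 bp in Prog-like Sox9, against 1220 bp in Tumor Sox9, 1105 bp in EpCAM-high CK19 and 1090 bp in EpCAM-high Sox9.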
